A study of Mus musculus with 16 samples.

Results

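The genes described here are 6 genes known as markers of the macrophages of the splenic marginal zone: *Marco*, *Siglec1*, *Cd209b*, *Cd5l*, *Nr1h3* and *Timd4*. They were chosen by name, with earlier results of these data known. Each symbol stood on 1 row of the 54838 gene rows in the count table. RNA was sequenced from spleens of C57BL/6 mice in 16 samples, 8 called size-selected and 8 called whole spleen. Each of the 8 numbers in the labels, 4 male and 4 female, gave 1 sample of each kind. The size-selected sample holds the cells that did not pass a cell strainer after the spleen had been minced, incubated in dissociation buffer and with dispase, and freed of red blood cells by lysis. The labels name its source as spleen glia, the supporting cells of the nerve fibres of the spleen, give the same protocol for all 16 samples, and do not describe how whole spleen was prepared. The series was designed to find genes enriched in those glia. No age, treatment or genetic change is given for either group, and the labels do not say whether 1 number is 1 animal. The p-values therefore measure the spread between these samples, and in bulk RNA more cells of a type and more RNA per cell cannot be told apart.

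The marginal zone is the border between the white pulp and the red pulp of the spleen, where arterial blood is released and passes by macrophages that bind microbes and debris. Its outer macrophages carry the scavenger receptor MARCO and the lectin SIGN-R1, the product of *Cd209b*. The metallophilic macrophages along its inner edge carry the sialic acid binding receptor CD169, the product of *Siglec1*. LXR-alpha, the oxysterol receptor encoded by *Nr1h3*, is needed for both kinds of macrophage to form in mice, and *Cd5l* is a known target gene of LXR. TIM-4, the product of *Timd4*, binds phosphatidylserine on dying cells. *Timd4*, *Cd5l* and *Nr1h3* are also expressed by other resident macrophages, so these 3 are not markers of the marginal zone alone.

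Promoters are shown for the genes that stand at the ends of the results. These are *Marco* and *Timd4*, with the highest levels per length in the size-selected samples, and *Cd5l*. *Cd5l* was the member not called in the main fit, which did not pair the samples by number, though some fits given below called it. Each sequence is the 250 bases before the start of the gene on its own strand, 5′ to 3′, from RefSeq (GRCm38.p6). In *Marco* (chr1:120505025-120505274, minus strand) the capitals mark GAGGAA, a purine-rich core of the kind that the macrophage factor PU.1 binds, whose first base is 146 bases before the start. In *Timd4* (chr11:46810549-46810798, plus strand) they mark AGGTCA, a core sequence that nuclear receptors such as LXR bind, 116 bases before the start. In *Cd5l* (chr3:87357631-87357880, plus strand) they mark TTCCTC, which is GAGGAA read on the other strand, 66 bases before the start.
Marco: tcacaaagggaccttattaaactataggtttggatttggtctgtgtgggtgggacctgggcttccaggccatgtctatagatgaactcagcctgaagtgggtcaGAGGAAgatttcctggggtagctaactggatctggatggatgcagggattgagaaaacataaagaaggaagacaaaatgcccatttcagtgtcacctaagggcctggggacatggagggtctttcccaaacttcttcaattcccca
Timd4: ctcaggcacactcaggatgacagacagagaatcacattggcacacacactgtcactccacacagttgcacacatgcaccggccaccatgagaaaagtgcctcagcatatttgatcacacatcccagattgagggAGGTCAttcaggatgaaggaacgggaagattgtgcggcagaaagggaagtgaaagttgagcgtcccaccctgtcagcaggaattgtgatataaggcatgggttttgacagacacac
Cd5l: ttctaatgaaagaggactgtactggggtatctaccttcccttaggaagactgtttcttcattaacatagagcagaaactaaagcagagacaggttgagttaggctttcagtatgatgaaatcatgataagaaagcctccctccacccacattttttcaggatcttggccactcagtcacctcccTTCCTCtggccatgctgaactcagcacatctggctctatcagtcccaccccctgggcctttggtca

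Promoter entries were found for 5 of the 6 genes, and *Siglec1* had none. Motifs were searched on both strands of each entry, 250 bases before to 50 bases after the start, and in all 32544 distinct promoters of that table. The full LXR element DR4, a direct repeat of AGGTCA with 4 bases between the copies, was in none of the 5 genes and in 5 promoters (0.0154%). The single AGGTCA was in *Timd4* and in 5288 promoters (16.2%). The longer PU.1 core GAGGAAGT was in none of the 5 genes and in 1013 promoters (3.11%). The shorter GAGGAA, added after the promoters had been read, was in 9151 promoters (28.1%), among them *Marco*, *Cd5l* and *Nr1h3*. In *Nr1h3* the match begins after the start. These matches describe the letters in these windows only.

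The total of estimated counts ranged from 13119992 to 19944440 in the size-selected samples and from 12153770 to 16282454 in whole spleen. Levels are CPM, the counts of each sample scaled to a common total (TMM). A gene was called when the edgeR quasi-likelihood test gave a Benjamini-Hochberg adjusted p under 0.05 over the 14510 genes tested. Of these, 67.9% were called: 37.5% were higher after size selection and 30.4% were lower. The median log2 fold change over all genes tested was 0.05. The size-selected label was read against 10 genes of peripheral glia, whose summed level ran from 1.80 to 9.06 CPM in whole spleen and from 74.0 to 532 CPM after size selection. Of these, 7 were tested and called higher, but 5 of the 7 were too low in whole spleen to pass the filter on low counts there, so that their call was close to fixed by the filter and does not support the label. *Erbb3*, which passed it there, rose by 1.54 on the log2 scale. With the number as a replicate block 6 of the 7 were, and *Gfap*, higher in 5 of 8 pairs, was not (edgeR adjusted p 0.0933). In all 8 size-selected columns and no whole spleen column, the values of 3898 genes were estimated counts multiplied by constants. *Cd5l* and *Nr1h3* are among them, with a constant from 0.770 to 0.858, and the other 4 members are not. Values with the constants divided out are called restored counts. Whole spleen sample 427 was the highest of its group for *Marco*, *Siglec1*, *Cd209b*, *Cd5l* and *Timd4*, and values without it are given below.

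The comparison of interest here is how RNA of these macrophage genes differed between the cells kept on the strainer and the whole organ. Of the 6 members, 5 were called higher after size selection (*Marco*, *Siglec1*, *Cd209b*, *Nr1h3* and *Timd4*), where 37.5% of all genes tested were called higher. *Cd5l* was not called. The ratio of mean CPM was 20.6 for *Siglec1*, 9.26 for *Timd4*, 6.57 for *Marco*, 5.78 for *Cd209b*, 2.92 for *Nr1h3* and 1.24 for *Cd5l*. The 2 groups did not overlap for *Marco*, *Siglec1*, *Nr1h3* and *Timd4*, where 23.3% of all genes tested were higher without overlap. The same 5 genes were higher in 8 of 8 pairs of the same number, as were 31.3% of all genes tested. When the number entered the fit as a replicate block, all 6 members were called higher, beside 38.1% of all genes tested. On restored counts all 6 were called higher too, beside 37.6%. The median log2 fold change of the 6 members was 2.62. Without number 427 the log2 fold changes were 4.51 for *Siglec1*, 3.23 for *Timd4*, 2.83 for *Marco*, 2.65 for *Cd209b*, 1.47 for *Nr1h3* and 0.27 for *Cd5l*, and each call was as in the fit of all samples.

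**Figure D1:**
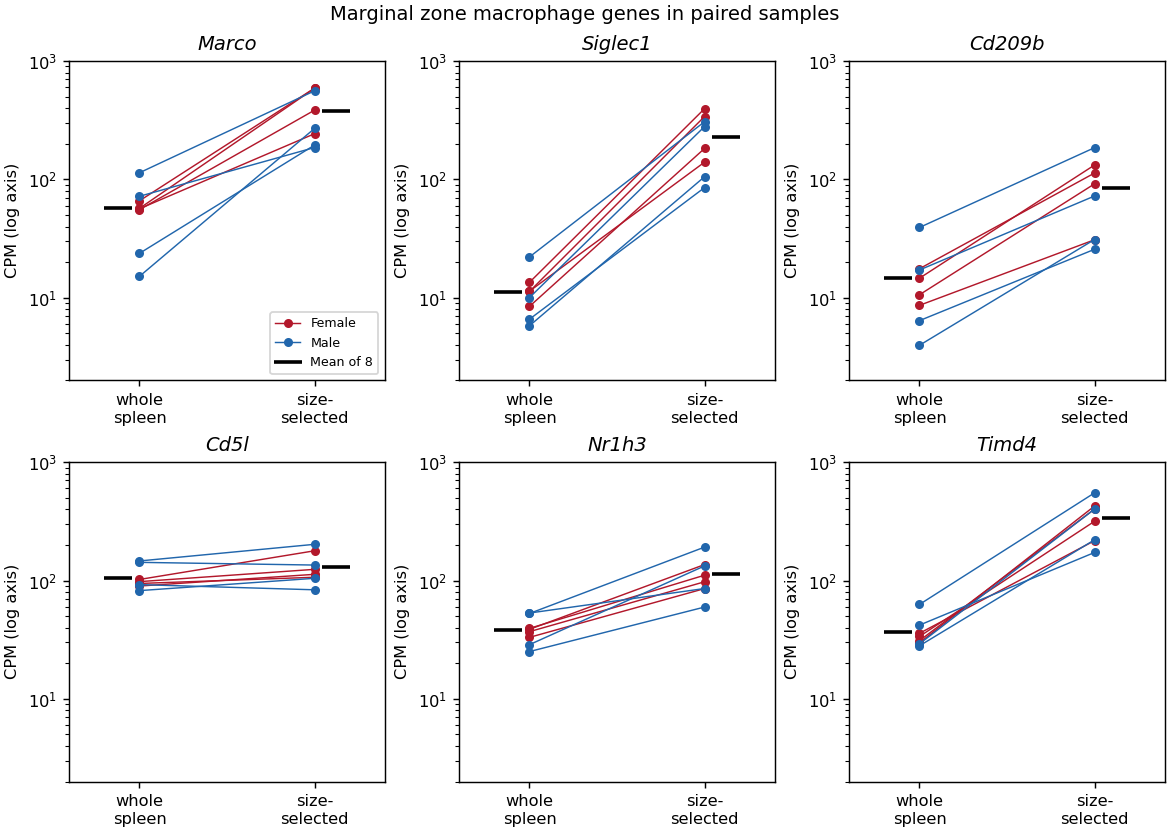
CPM of each of the 6 genes (vertical log axis) in whole spleen and size-selected samples. Each line joins the 2 samples of 1 number, red for female and blue for male, and black bars are means of 8 samples. Lines rise in all 8 pairs for every gene but *Cd5l*, which rises in 6 of 8.

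*Marco* (ENSMUSG00000026390, chromosome 1, 120474538 to 120505024, GENCODE M21 on GRCm38) encodes a class A scavenger receptor that binds bacteria and polyanions. In whole spleen it measured 15.2 CPM in the lowest sample, 56.7 at the median and 114 in the highest. The corresponding values after size selection were 186, 327 and 591 CPM. Whole spleen samples 407 and 408, both male, were the lowest at 15.2 and 23.7 CPM, and the highest whole spleen sample, 427, was below every size-selected sample. The means were 57.5 ± 30.2 and 377 ± 179 CPM (SD, n = 8 each). In edgeR this was a log2 fold change of 2.72, with an SE of 0.37 and an adjusted p of 2.75e-06. Within pairs, the log2 difference ran from 1.37 in number 435 to 4.14 in number 407.

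*Cd209b* (ENSMUSG00000065987, chromosome 8, 3917655 to 3926844) encodes SIGN-R1, a lectin that captures bacterial polysaccharides. Whole spleen gave 3.97 CPM in the lowest sample, 12.6 at the median and 39.3 in the highest, and the size-selected samples gave 25.7, 82.1 and 185 CPM. The groups overlapped, because whole spleen sample 427, at 39.3 CPM, lay above the 3 lowest size-selected samples, at 25.7, 30.9 and 31.1 CPM. The next whole spleen sample, at 17.6 CPM, lay below all of the size-selected samples. The lowest whole spleen samples were again 407 and 408, at 3.97 and 6.41 CPM. The means were 14.8 ± 11.1 and 85.4 ± 56.9 CPM (SD, n = 8 each). The fitted log2 fold change was 2.53 (edgeR), with an SE of 0.47 and an adjusted p of 0.000108. *Cd209b* has close paralogs in the SIGN-R family, and reads shared between them were not measured here, so its level is uncertain to that extent.

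*Siglec1* (ENSMUSG00000027322, chromosome 2, 131069220 to 131086765) encodes CD169, which binds sialylated particles and cells. It had the largest log2 fold change of the 6 genes. Whole spleen measured 5.80 CPM in the lowest sample, 10.7 at the median and 22.1 in the highest, against 85.3, 231 and 396 CPM in the size-selected samples. The lowest size-selected sample, 435, stood well above the highest whole spleen sample, 427. The means were 11.1 ± 5.12 and 230 ± 117 CPM (SD, n = 8 each). The edgeR log2 fold change was 4.37 with an SE of 0.36 and an adjusted p of 5.38e-09. Pair differences ran from 3.61 to 4.90 (log2). *Siglec1* was also the only one of the 6 genes listed in the authors' deposited table of 2201 genes, whose lowest log2 fold change is 3.5. In the authors' deposited table it had a log2 fold change of 4.23 (SE 0.31), an adjusted p of 1.53e-41 and mean levels of 44.2 TPM in size-selected samples and 1.89 TPM in whole spleen.

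*Timd4* (ENSMUSG00000055546, chromosome 11, 46810800 to 46844332), the receptor for dying cells, measured 28.1 CPM in the lowest whole spleen sample, 32.3 at the median and 62.8 in the highest. After size selection it measured 173, 359 and 550 CPM. Sample 427 was the highest of both groups, and the other 7 whole spleen samples lay between 28.1 and 42.0 CPM. The means were 36.5 ± 11.5 and 338 ± 129 CPM (SD, n = 8 each). The edgeR log2 fold change was 3.21 with an SE of 0.24 and an adjusted p of 2.07e-09. Pair differences ran from 2.04 in number 435 to 3.83 in number 447 (log2).

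*Nr1h3* (ENSMUSG00000002108, chromosome 2, 91184061 to 91202834), the gene of the nuclear receptor LXR-alpha, rose less than the 4 receptors. Whole spleen measured 25.1 CPM in the lowest sample, 37.8 at the median and 53.1 in the highest, and the size-selected samples 59.6, 104 and 192 CPM. The groups did not overlap, but sample 408 was low in both and the gap between the groups was narrow. The means were 38.5 ± 10.2 and 112 ± 40.9 CPM (SD, n = 8 each). By edgeR the log2 fold change was 1.55, with an SE of 0.21 and an adjusted p of 2.89e-06, and it was 1.79 on restored counts. *Nr1h3* overlaps *Gm13783* on its own strand and *Gm23390* on the other. No source says whether strand was used in counting, and reads of these genes cannot be told apart from its own with certainty.

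*Cd5l* (ENSMUSG00000015854, chromosome 3, 87357881 to 87371073), also called AIM, encodes a secreted scavenger protein of the SRCR family. Whole spleen measured 82.1 CPM in the lowest sample, 96.1 at the median and 146 in the highest, and the size-selected samples 83.5, 118 and 202 CPM. The groups overlapped over most of their range, and the size-selected value was below the whole spleen value in numbers 408 and 435. The means were 106 ± 24.4 and 131 ± 40.1 CPM (SD, n = 8 each). The edgeR log2 fold change was 0.31 with an SE of 0.17 and an adjusted p of 0.123. The call turned with the fit: with the replicate block edgeR gave 0.28 (SE 0.10) and an adjusted p of 0.0285, and on restored counts 0.55 (SE 0.17) and an adjusted p of 0.00883, with 8 of 8 pairs higher. In females alone it was 0.43 (edgeR adjusted p 0.0252) and in males alone 0.11 (edgeR adjusted p 0.782). On every setting tried the change stayed below that of the other 5 genes.

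**Figure D2:**
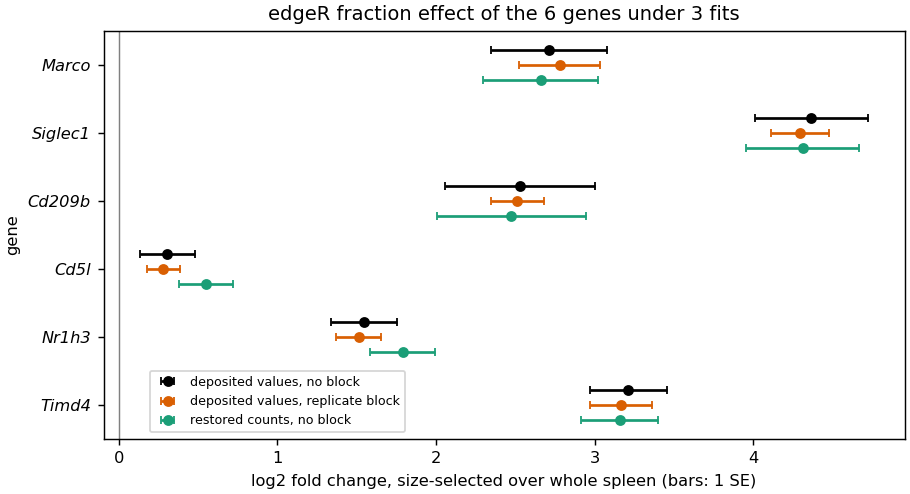
edgeR log2 fold change of the 6 genes, size-selected over whole spleen (horizontal axis; bars are 1 SE), in 3 fits marked by colour. *Siglec1* lies at 4.30 to 4.37 in all 3 fits, and *Cd5l* at 0.28 to 0.55.

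The order of the 6 genes by level per length differed between the groups. In whole spleen *Cd5l* led with 52.0 ± 12 CPM per kilobase of merged exons (SD, n = 8), above *Marco* in 8 of 8 samples. *Marco* followed at 29.8 ± 15.7, *Timd4* at 16.8 ± 5.30 and *Nr1h3* at 15.3 ± 4.04 CPM per kilobase. *Cd209b* (6.99 ± 5.22) and *Siglec1* (1.56 ± 0.717 CPM per kilobase) were the lowest, each below its upper neighbour in 8 of 8 samples. After size selection *Marco* led with 196 ± 92.8 CPM per kilobase and *Timd4* followed with 156 ± 59.5. *Cd5l* came next at 64.3 ± 19.7, below *Timd4* in 8 of 8 samples. *Nr1h3* (44.7 ± 16.3), *Cd209b* (40.4 ± 26.9) and *Siglec1* (32.1 ± 16.3 CPM per kilobase) closed the order, and the last 2 steps held in 4 of 8 samples each. This order used deposited values, in which only *Cd5l* and *Nr1h3* of the 6 genes carry the constants. On restored counts the size-selected mean was 130 CPM for *Nr1h3* and 80.4 for *Cd209b*, against 112 and 85.4 CPM on deposited values. The order per length was not computed on restored counts. The ranges of all neighbours in both orders overlapped, so the steps that did not hold in every sample are within the spread. *Siglec1* was thus well below *Cd209b* per length in whole spleen and close to it in the size-selected samples.

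Genes shared by most macrophages rose in part. Of 11 pan-macrophage genes, 6 were called higher and none lower, where 37.5% and 30.4% of all genes were, with a median log2 fold change of 0.57. With the replicate block 7 were called higher, with *C1qb* added (0.36, edgeR adjusted p 0.0275, against 0.40 and 0.0582 without the block). *Lyz2*, the lysozyme gene, rose by 2.77 (SE 0.23) and *Csf1r*, the receptor for CSF-1, by 1.92 (SE 0.22) on the log2 scale. *Cd68* had a log2 fold change of 0.00 and *Fcgr1* of 0.19, neither called, and on restored counts they had 0.24 and 0.43, also not called. The mean log2 CPM of the 11 genes was higher in the size-selected sample in 8 of 8 pairs, by 0.97 ± 0.38 (SD, from 0.38 to 1.52). Their summed level ran from 3634 to 5428 CPM in whole spleen and from 8417 to 23831 CPM in the size-selected samples.

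Taken against that mean within each sample, the 6 genes moved apart. *Siglec1* gained 3.30 ± 0.46, *Timd4* 2.19 ± 0.44, *Marco* 1.81 ± 0.78 and *Cd209b* 1.53 ± 0.39 on the log2 scale (SD of 8 pairs), each in 8 of 8 pairs. *Nr1h3* gained 0.54 ± 0.38 in 8 of 8 pairs, and 0.75 on restored counts. *Cd5l* changed by -0.69 ± 0.18, lower in 8 of 8 pairs, and by -0.47 on restored counts, where it was higher in 0 of 8 pairs. The values of the 2 groups did not overlap for *Marco*, *Siglec1* and *Timd4*. On the same relative scale 13.5% of the 14510 genes tested were higher without overlap, 16.7% were higher in 8 of 8 pairs and 49.5% were lower in 8 of 8 pairs (50.5% on restored counts). These relative values were not tested, and they depend on the genes that make up the macrophage mean.

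**Figure D3:**
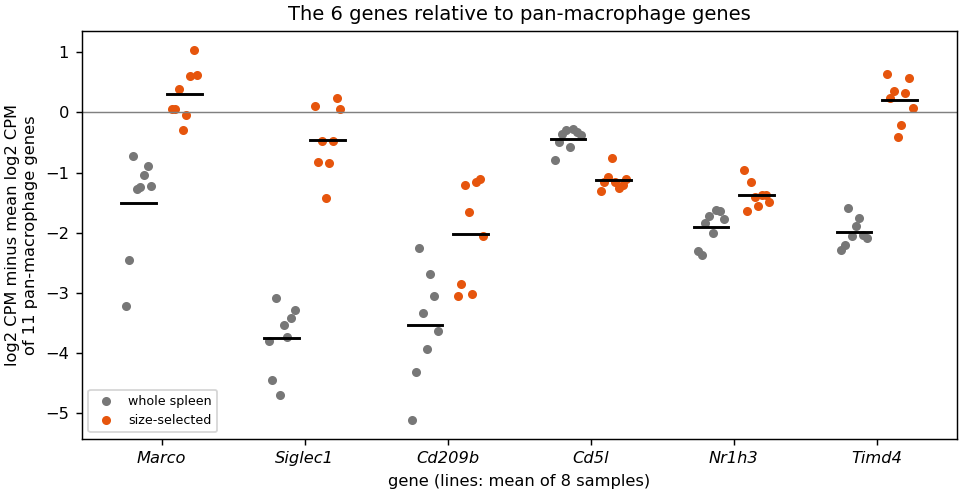
log2 CPM of each gene minus the mean log2 CPM of 11 pan-macrophage genes (vertical axis) in 8 whole spleen samples (grey) and 8 size-selected samples (orange). Lines are means. *Siglec1* moves from -3.75 to -0.45, while *Cd5l* moves from -0.44 to -1.13.

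The genes most like each member over the 16 samples were found by the root mean square difference of centred log2 CPM profiles. The profiles span both fractions, so genes with a similar log2 fold change lie close together, such as *Siglec1* (4.37) and *Cfb* (4.42). Closest to *Cd5l* were *C1qb* (0.13) and *C1qc* (0.19), which encode chains of complement C1q. Closest to *Nr1h3* were *Tmem106a* (0.12) and *Pla2g7* (0.20), a phospholipase gene. *Timd4* lay nearest to *Pla2g2d* (0.16), a secreted phospholipase gene, and *Cd63* (0.21), which encodes a tetraspanin of late endosomes. *Siglec1* lay nearest to *Cfb* (0.37), the gene of complement factor B, and *Vsig10* (0.43). *Marco* lay nearest to *Ttyh2* (0.42) and *Mgat4b* (0.43). The distances were widest for *Cd209b*, nearest to *Tst* (0.61) and *Plxdc1* (0.66). *Cd209b* was closer to *Marco* (0.54) than to either of these, although the rule named non-members. On restored counts *C1qa* took the place of *C1qc*, *Serpinb6a* that of *Tmem106a* and *Met* that of *Vsig10*.

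Levels of the 6 genes also varied between samples of 1 fraction. Within each fraction all 15 pairs of members had a positive Pearson r of log2 CPM over the 8 samples, from 0.50 to 0.93 in the size-selected samples and from 0.30 to 0.92 in whole spleen. Of the 30 relations tested, 14 had an adjusted p under 0.05 by exact permutation of Pearson r, 6 in the size-selected samples and 8 in whole spleen. By Spearman rho, 1 and 2 did. All points of 1 fraction come from the same 8 libraries, and the pairs share members. Over all pairs of genes that passed the filter in a fraction, r was positive for 50.9% in the size-selected samples and 49.9% in whole spleen. It was at least as high as the lowest r of a called member pair (0.80 and 0.78) for 3.4% and 2.59% of them. Without the 2 samples farthest from the median of the gene on the x axis, r was negative for 1 of the 15 relations in the size-selected samples (*Cd5l* and *Timd4*, from 0.54 to -0.04 without 427 and 460) and for 4 of the 15 in whole spleen, each with *Siglec1*.

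In whole spleen *Marco* and *Cd209b*, both genes of the outer macrophages, had r = 0.92 and rho = 0.76 (exact permutation p = 0.00067 and 0.0368, adjusted p 0.0186 and 0.0848), and r = 0.89 without samples 407 and 408. Across whole spleen samples *Marco* varied 7.51-fold from lowest to highest and *Cd209b* 9.90-fold, while *Cd5l* varied 1.78-fold. *Siglec1*, the gene of the inner macrophages, had no called relation in whole spleen, with r from 0.30 for *Cd5l* to 0.58 for *Timd4*. Without samples 408 and 427 its r was -0.62 with *Cd5l*, -0.71 with *Timd4*, -0.55 with *Nr1h3* and -0.39 with *Cd209b*, so these positive values rested on those samples. In the size-selected samples *Siglec1* and *Timd4* had r = 0.93 and rho = 0.81 (exact permutation p = 0.00124 and 0.0218, adjusted p 0.0186 and 0.0726), and r = 0.84 without samples 408 and 435. *Marco* and *Siglec1* had r = 0.90 and rho = 0.95 there (exact permutation p = 0.00747 and 0.00114, adjusted p 0.0338 and 0.0335), and r = 0.82 without samples 447 and 460. Some relations rested on 2 samples. The r of *Cd5l* and *Timd4* in whole spleen went from 0.85 to 0.08 without samples 427 and 435, and that of *Cd5l* and *Nr1h3* in the size-selected samples from 0.80 to 0.46 without samples 427 and 460.

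No member was called between the sexes by edgeR or by DESeq2, in whole spleen, where 0.194% of 13383 genes were called, or in the size-selected samples, where 0.0397% of 15127 were (both shares by edgeR). The smallest unadjusted p of a member in edgeR was 0.143 for *Cd5l* in whole spleen and 0.148 for *Marco* in the size-selected samples. *Marco* in the size-selected samples measured 452 ± 169 CPM in females and 303 ± 176 in males (SD, n = 4 each), and the female over male log2 ratio fitted by edgeR was 0.58 (SE 0.37) with an adjusted p of 0.999. Without number 427 it was 1.01 (edgeR adjusted p 0.309), and with each number left out in turn it ran from 0.42 to 1.01. *Siglec1* there measured 265 ± 123 CPM in females and 194 ± 115 in males (SD, n = 4 each), and the ratio was 0.45 (SE 0.45), also with an edgeR adjusted p of 0.999. With a number left out it ran from 0.19 (without 460) to 0.72 (without 427), and it was 0.21 without 435, 0.26 without 408 and 0.69 without 407. Male whole spleens were spread wider than female ones for all 6 genes. *Marco* ran from 55.5 to 66.0 CPM in female whole spleens and from 15.2 to 114 CPM in male ones. The interaction of sex and fraction was called for no gene of 15760, member or not, by edgeR, where 744 genes had an unadjusted p under 0.05. DESeq2 and edgeR with the replicate block each called 3 genes, none of them a member. Interaction log2 values of the 6 genes ran from -0.02 for *Nr1h3* (SE 0.43) to 0.60 for *Cd209b* (SE 0.94), each with an edgeR adjusted p of 1.00.

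The genes of each receptor's own family were read beside it. Of all genes tested, 37.5% were called higher and 30.4% lower. Of 4 relatives of *Marco* among the class A scavenger receptors, all 4 were called higher. Of these, *Scara3* and the ferritin receptor gene *Scara5* had at most 21 and 3 counts in a whole spleen sample and passed the filter on low counts through the size-selected samples alone, which came close to fixing their call. *Msr1*, the macrophage scavenger receptor gene, rose by 1.36 (SE 0.26) on the log2 scale, at 9.05 ± 5.16 CPM in the size-selected samples (SD, n = 8). Of 6 relatives of *Cd209b*, 3 were tested, and *Cd209e* was called higher by 2.39 (log2), at 3.88 ± 3.31 CPM (SD, n = 8). *Cd209a*, a dendritic cell gene, had a log2 fold change of -0.54 (edgeR adjusted p 0.253) and was lower in 8 of 8 pairs, at -0.70 (edgeR adjusted p 0.0130) with the replicate block. Of 6 relatives of *Siglec1* tested, *Cd33* (2.64), *Mag* (1.72) and *Siglece* (0.54) rose and *Siglecg*, a B cell gene, fell by 0.90 on the log2 scale. The call of *Siglece* was lost on restored counts (edgeR adjusted p 0.0697), and *Cd22* was called lower with the replicate block alone (-0.54, edgeR adjusted p 0.0303). Of the relatives of *Timd4*, *Havcr1* rose by 1.00 and *Havcr2* had 0.06, not called. Of 4 relatives of *Cd5l* tested, the T cell genes *Cd5* and *Cd6* fell by 1.28 and 0.97, and *Ssc5d*, with 0 counts in all whole spleen samples, entered the test through the size-selected samples alone, so that its call there is no result.

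Of 11 partners and target genes of LXR tested, 3 were called higher and 4 lower, counts near the 37.5% and 30.4% of all genes, with a median log2 fold change of 0.09 beside 0.05 over all genes. *Rxra*, the gene of the retinoid receptor that pairs with LXR, rose by 2.33 (SE 0.20), *Apoe* by 0.99 (SE 0.17) and *Srebf1* by 0.55 (SE 0.12). *Scd1*, a fatty acid desaturase gene, fell by 0.60, *Abcg1*, a cholesterol exporter gene, by 0.33 and *Nr1h2*, which encodes LXR-beta, by 0.32 on the log2 scale. *Lpcat3* fell by 0.34 on deposited values and had -0.10 on restored counts, not called (edgeR adjusted p 0.356). On restored counts *Abca1* (0.48, edgeR adjusted p 0.0150) and *Pltp* (1.09, edgeR adjusted p 0.000391) were called higher as well.

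Of 10 tested genes of signals known to maintain the marginal zone, 5 were called higher and 4 lower, where 37.5% and 30.4% of all genes were. *Cxcl13*, a chemokine gene of follicle stroma, rose from 6.47 ± 4.64 to 340 ± 170 CPM (SD, n = 8), which is 5.73 on the fitted log2 scale (SE 0.44). *Csf1*, the macrophage growth factor gene, rose by 4.80 (SE 0.25), *Madcam1*, a gene of marginal sinus lining cells, by 4.66 (SE 0.48), and *Ltbr*, the lymphotoxin receptor gene, by 2.56 (SE 0.21). The ligand genes *Ltb*, *Lta* and *Tnf* fell by 1.46, 0.92 and 0.81, and *Tnf* by 0.41 on restored counts. *Relb*, a gene of an NF-kappa-B subunit, fell by 0.25 and was not called on restored counts (-0.01). Genes for the uptake of dying cells, the process in which TIM-4 takes part, were called higher in 9 of 10 cases, with a median log2 fold change of 3.30. One of the 9, *Tyro3*, had at most 18 counts in a whole spleen sample and passed the filter on low counts through the size-selected samples alone, so its call was close to fixed. *Mfge8*, whose product bridges phosphatidylserine to integrins, rose by 5.39 (SE 0.35), *Gas6* by 5.15 (SE 0.38) and the macrophage receptor gene *Mertk* by 1.84 (SE 0.23). *Elmo1* had -0.03, not called.

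Red pulp macrophage genes rose in part. Of 7, 4 were called higher and none lower, beside the same shares of all genes. The 4 were *Vcam1* (1.81), *Mrc1* (1.33), *Slc40a1* (1.29) and *Cd163* (0.92, all log2 fold changes). *Spic*, the transcription factor gene that defines red pulp macrophages, measured 181 ± 42.2 CPM in whole spleen and 199 ± 74.9 in the size-selected samples (SD, n = 8 each). Its log2 fold change by edgeR was 0.14, with an SE of 0.19 and an adjusted p of 0.543. *Hmox1*, the heme oxygenase gene, had 0.05 and *Blvrb* -0.20, neither called. On restored counts *Spic* had 0.39 (edgeR adjusted p 0.0899) and *Hmox1* 0.30 (edgeR adjusted p 0.145), still not called. The fold change of *Cd5l* lay between those of *Spic* and *Cd163*, and those of *Marco*, *Siglec1*, *Cd209b* and *Timd4* lay above every gene of this list. *Vcam1* is also expressed by endothelial and stromal cells.

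Genes of other cells moved with the fraction as well, where 37.5% of all genes tested were called higher and 30.4% lower. All 6 fibroblast genes (summed level 4.67 to 55.6 CPM in whole spleen, 1003 to 3484 in the size-selected samples) and all 6 endothelial genes (123 to 431 and 2049 to 5585 CPM) were called higher. The call of 1 fibroblast gene, *Pdgfra*, with at most 9 counts in a whole spleen sample, was close to fixed by the filter in the same way. Of these endothelial genes, *Stab2* rose by 3.76 (SE 0.35) on the log2 scale. All 7 neutrophil genes, all 5 B cell genes and 5 of 6 T cell genes were called lower, with median log2 fold changes of -1.71, -1.48 and -1.62. The other T cell gene, *Cd4*, was called higher with the replicate block (0.32, edgeR adjusted p 0.0371) and not without it. Of 11 genes that tissue dissociation can induce, 9 were called higher and 1 lower, *Ier2* (-0.39, edgeR adjusted p 0.00222), whose call was lost on restored counts (0.01, edgeR adjusted p 0.928), and their summed level went from 2150 to 3195 CPM in whole spleen to between 4760 and 9319 CPM in the size-selected samples. The part of these cells, and of dissociation, in the values of the 6 genes was not tested.

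**Figure D4:**
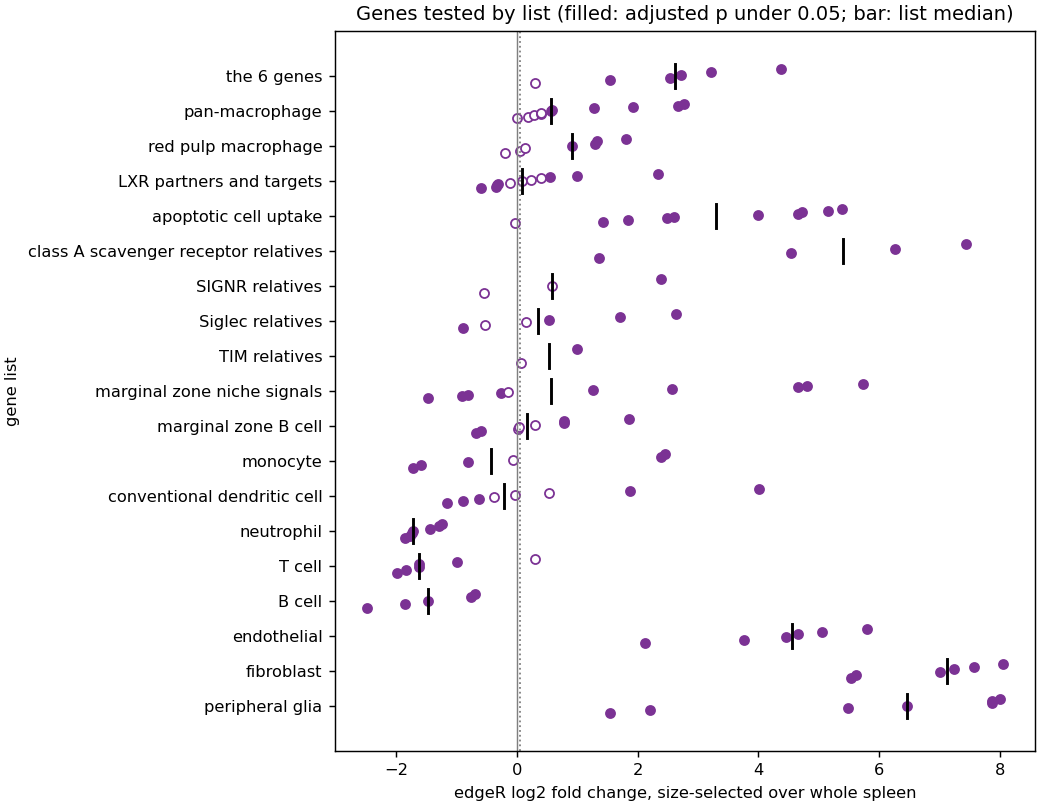
edgeR log2 fold change (horizontal axis) of each tested gene of the lists drawn. The relatives of *Cd5l* and the erythroid, smooth muscle and tissue dissociation genes are not drawn. Filled points have an adjusted p under 0.05, black bars are list medians, and the dotted line is the median of all genes tested, at 0.05. The 6 genes have a median of 2.62, against 0.57 for pan-macrophage and 0.92 for red pulp macrophage genes.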

How the data were processed

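RNA-seq values of 8 size-selected and 8 whole spleen samples were used. Per the submitters' processing notes the tools were Trim Galore, STAR, RSEM and DESeq, with build mm10, and their versions and settings are not given in the sources used here. The deposited table holds the authors' estimated counts per gene. A second deposited table is the authors' test of the fractions. Per the file headers it holds a base mean (a signal, the mean of normalized counts), log2 fold changes with standard errors, a test score, p-values and adjusted p-values, and group means in TPM and FPKM, with no value per sample. The deposited FPKM values were not used. Whether the counting used strand is not stated.

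Estimated counts were rounded to whole numbers and tested with edgeR 4.0.16 in R 4.3.3 (filterByExpr with a minimum count of 10, TMM, quasi-likelihood F test, Benjamini-Hochberg over all genes tested). The fraction fit had no block. Standard errors were taken as the log2 fold change divided by the root of F. Log2 CPM used a prior count of 2. Correlations were tested by all 40320 orders of 8 samples, two-sided, adjusted over 30 relations. DESeq2 1.42.0, limma-voom (limma 3.58.1), other scalings and filters, a replicate block, sex as a covariate, 1 sex at a time, restored counts and leaving out each number were alternatives. Restored counts with the block, and the motif GAGGAA, were added after the data had been seen. The constants were found from the values; no label or header mentions them. Fits were tested on simulated data.

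The numbers pair the samples: deviations of same-numbered samples correlated over 14510 genes at a mean r of 0.21 (0.12 to 0.38), and those of different numbers at -0.03. Of the 54838 gene identifiers, 54723 were in GENCODE M21 (GRCm38), the source of coordinates and merged exon lengths. *Ccl19* and *Ccl21a* stood on more than 1 row and were left out. The 6 members, the gene lists and the tests were chosen with earlier results of these data known. Named besides the members are list genes, those with the largest changes first, and the 2 genes most like each member. Some list genes are not reported here by name.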

Additional observations from a re-analysis of the deposited data

Results flagged for a closer look

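Each member's 8 values in a fraction were searched for a sample that lay far from the other 7, by Dixon's test. On the CPM scale, which was added after sample 427 had been seen to stand high, 3 of 12 groups of values held such a sample, each time whole spleen sample 427. It measured 39.3 CPM for *Cd209b*, where the other 7 whole spleen samples lay between 3.97 and 17.6 CPM. For *Timd4* it measured 62.8 CPM against 28.1 to 42.0, and for *Siglec1* 22.1 CPM against 5.80 to 13.5. On the log2 scale, over 18 groups of values that include the pair differences, no sample was past the limit. Chance alone marks about 1 in 20 groups, and the 3 values come from 1 library. Without number 427 the edgeR log2 fold changes were 2.65 for *Cd209b*, 3.23 for *Timd4* and 4.51 for *Siglec1*, against 2.53, 3.21 and 4.37 with it.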

How the results depend on the processing

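*Marco*, *Siglec1*, *Cd209b*, *Nr1h3* and *Timd4* kept their direction and their call in all 20 alternatives of the fraction comparison, with adjusted p of at most 0.0432 (*Cd209b*). Leaving out each number in turn moved the log2 fold changes between 2.59 and 2.87, 4.25 and 4.51, 2.41 and 2.65, 1.46 and 1.67, and 3.12 and 3.34, in that order. *Cd5l* stayed positive in all 20 and was called in 5: library totals (0.42, adjusted p 0.0345), replicate block (0.28, adjusted p 0.0285), females only (0.43, adjusted p 0.0252), restored counts (0.55, adjusted p 0.00883) and restored counts with the replicate block (0.53, adjusted p 0.000695). Without single numbers it ranged from 0.22 to 0.37, never called. Library totals moved the median of all genes from 0.05 to 0.18. In males alone 2799 genes were called lower, against 4409. The replicate block, which rests on the pairing by number, changed no other member's call in the fraction comparison. Same-numbered samples correlated best for 6 of 8 numbers.

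Over all genes, the sex comparison in whole spleen called 13 higher and 13 lower, but 118 and 155 with no filter, 223 and 295 with DESeq2, and 2 to 109 and 5 to 152 when a number was left out, the highest both without number 427 and the lowest without number 460 (the lower count also without 445 and 447). In the size-selected samples DESeq2 called 15 higher and 7 lower, against 2 and 4. The interaction called 3 genes higher with DESeq2 and 3 with the replicate block, and 0 to 1 when a number was left out. No member was called in any of these fits, and small values changed sign. In whole spleen *Siglec1* had 0.0092 with no filter. In the size-selected samples *Cd5l* had 0.027 on restored counts. For the interaction *Nr1h3* had 0.0042 with RLE scaling, 0.0040 with DESeq2, 0.013 with the replicate block and 0.043 on restored counts. With a number left out, the sex effect in whole spleen ranged from -0.26 to 0.66 for *Marco*, -0.21 to 0.58 for *Siglec1*, -0.71 to 0.47 for *Cd209b* and -0.29 to 0.062 for *Nr1h3*. In the size-selected samples it ranged from -0.047 to 1.03 for *Cd209b*, -0.21 to 0.22 for *Cd5l*, -0.33 to 0.17 for *Nr1h3* and -0.19 to 0.32 for *Timd4*. The interaction of *Nr1h3* ranged from -0.31 to 0.17. The cause was not tested. Correlations called numbered 14 with a prior count of 0.5 and 15 on restored counts, against 14. Whole spleen counts per sample ran from 51 to 481 for *Cd209b* and from 76 to 271 for *Siglec1*.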

Other observations

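Of 8 marginal zone B cell genes, 3 were called higher by edgeR and 2 lower, counts near the 37.5% and 30.4% of all genes. Higher were *S1pr3* (log2 fold change 1.86, SE 0.17), *Cd9* (0.79) and *Myof* (0.78), and lower were *Dtx1* (-0.68) and *S1pr1* (-0.60). *S1pr1* was not called on restored counts (-0.19, adjusted p 0.106). *Cr2*, the complement receptor gene, high in these B cells, measured 198 ± 65.7 CPM in whole spleen and 204 ± 78.5 CPM in the size-selected samples (SD, n = 8 each), with a log2 fold change of 0.04. All 5 genes of B cells in general were lower.

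Of the monocyte genes, *Cx3cr1* (2.45, SE 0.22) and *Ace* (2.39, SE 0.24) rose, while *Ly6c2* (-1.71, SE 0.27), *Spn* (-1.59) and *Ccr2* (-0.80) fell. Among 8 genes of conventional dendritic cells, *Esam* (4.01), which endothelium also expresses, and *Zbtb46* (1.87) rose, and *Clec9a* (-1.15), *Flt3* (-0.89) and *Xcr1* (-0.63) fell. *Itgax* had -0.04, not called. *Clec10a* was called higher on restored counts alone (0.76, edgeR adjusted p 0.0328).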
